A study of Glycine max with 8 samples.

Results

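In leaves of soybean seedlings, 205 transcripts were strongly induced by a first drought and were far below that level in a second drought. They were chosen by a rule on the deposited normalized intensities: the mean log2 intensity was more than 2 (4-fold) higher at DR1 than at WT1, and more than 2 lower at DR2 than at DR1. Of 60386 entries in the table, 60228 carry a Glyma gene name and could pass, and the 205 members come from 183 gene loci. The members were selected on these values, so the first rise, the fall between the droughts and the sum of both are given as a description, with no test.

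Glycine max cv. Daepoong seedlings were sampled in 4 states, with 2 biological replicates and 1 single-colour array for each. Seedlings were grown for 7 days. WT1 plants then stayed watered, and DR1 plants had water withheld, for 4 days by the treatment protocol and 4 hours by the sample labels. WT2 plants were rewatered for 1 day after the first drought, and DR2 plants went through a second drought of 4 days. All plants were of 1 cultivar, and the leaves were profiled as a bulk, in which fewer cells of a type and less RNA per cell cannot be told apart. The 2 replicates are described as independent experiments, and p-values measure the spread between these 2 arrays a state.

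A plant that dries out closes its stomata, accumulates abscisic acid and switches on genes for protective proteins, sugars and hormone control. In a repeated drought, many such genes respond again, and some respond more strongly, which is called transcriptional stress memory. The study also counts genes at reduced levels in later droughts as memory genes. The transcripts described here were induced in the first drought and reached a much lower level in the second. Sugar cleavage, cytokinin signalling, protease inhibition and storage proteins are functions through which a leaf is known to tune growth and reserves.

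Across the arrays, 55.2 to 65.2% of probes were well above background and no probe was saturated. The 2 DR2 arrays had the lowest shares, 57.3 and 55.2%, against 61.4 to 65.2% on the others. The lowest value of a fully detected transcript was 40.2 and 51.0 on the DR2 arrays and 24.6 to 30.9 on the others. The part of this difference in the low DR2 values of members was not tested. The arrays of the first cycle (DR1 and WT1) shared 1 slide and those of the second (DR2 and WT2) another. DR1 against WT1 and DR2 against WT2 were thus compared within a slide. Every comparison between the first and the second pair of states also crosses slides, and slide and cycle cannot be told apart there. Leaf age differed too: WT2 leaves were taken 1 day after DR1 leaves, and DR2 leaves a further 4 days later. No watered plants of the DR2 age were profiled, so drought and age cannot be told apart between DR2 and any other state. The 2 WT2 arrays differed for the members and for the other induced transcripts. The median member lay 1.12 above its WT1 mean on WT2 array 1 and 0.20 above it on WT2 array 2 (log2), and array 1 was the higher for 181 of 205 members, 88.3%, against 91.4% of the other transcripts induced more than 4-fold at DR1 and 45.8% of all entries. On DR2, array 2 was the higher for 155 members, 75.6%. Leaf identity was checked with 16 entries annotated as RuBisCO small subunit or chlorophyll-binding proteins, all detected, whose summed intensity averaged 1252383, 299853, 1093267 and 12624.5 over the 4 states in time order. The 28 entries with cupin or oleosin domains, fixed as seed markers though cupins include leaf germin-like proteins, summed to 95977.5, 14455.5, 109292 and 112221.5 in the same states, and no entry with a globin domain was annotated. The part of either marker list in the results below was not tested.

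The members' median intensity was 118.8 in well-watered plants (WT1), reached 1061.3 in the first drought, and was 201.4 on rewatering and 115.6 in the second drought. The median member was 2.76 higher at DR1 than at WT1 on the log2 scale, and the steepest one, Glyma.13G219300-1, 7.26, or at least 81.6-fold since no probe was above background at WT1. At DR2 the median member was 2.88 below DR1, and the range of that change ran from -6.72 to -2.01. In 204 of the 205 members, both DR1 arrays were above both WT1 arrays and both DR2 arrays, an order that the rule itself favours. The exception, Glyma.19G133400-1, a dioxygenase with a 2OG-FeII_Oxy domain, had 24.8 and 29.0 at WT1, 26.2 and 570.3 at DR1, 26.7 and 32.3 at WT2, and 35.4 and 25.4 at DR2, so its membership rests on 1 array. Glyma.19G199800-1 kept the order narrowly, with 150.9 and 21.6 at DR1 against 1.42 and 17.3 at WT1. Both thresholds were passed in each pair of same-numbered arrays by 142 members. At least 1 probe was well above background on both DR1 arrays for 203 members. By contrast, 34 members had no probe above background on either WT1 array and 50 had none on either DR2 array. For these the size of the fold is open, and the floor of an array gives only a lower bound. At that bound, 21 of the 34 rises and 28 of the 50 falls exceeded 4-fold, and the others were not shown to reach the threshold. With such members set at the floor, the median rise was 2.64 and the median fall -2.70 on the log2 scale.

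Just inside the rise threshold lay Glyma.10G088000-1, Glyma.13G224300-1 and Glyma.13G259400-2 with log2 changes of 2.02 at most, and just outside it Glyma.12G187300-1, Glyma.17G014000-1 and Glyma.19G228300-3 with 1.999, 1.993 and 1.987. Inside the fall threshold the closest were Glyma.06G081100-1, Glyma.19G133400-1 and Glyma.02G248200-1 with -2.01, -2.03 and -2.04. Outside it, Glyma.17G036300-1 sat at the threshold itself, and Glyma.19G182100-1 and Glyma.08G083800-1 had changes of -1.996 and -1.993 between DR2 and DR1.

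Protein domains were taken from the annotation that accompanies the study, which was available in part and covers response-selected transcripts. A domain was named for 167 members, 33 were listed without one and 5 were not found. The 167 carried 87 different domains, and 35 of these occurred at 2 or more member loci. Most domains were thus represented by a single locus.

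The 12 leading members, ranked by the smaller of the rise and the fall, included 3 entries of histidine phosphotransfer (Hpt) proteins, which relay the phosphate signal from cytokinin receptors to response regulators in the nucleus. The foremost, Glyma.07G015600-1, had intensities of 513 and 389 at WT1, 13999 and 12722 at DR1, 2697 and 1394 at WT2, and 135 and 1469 at DR2. It was 29.9-fold higher at DR1 than at WT1, and the 2 DR2 arrays disagreed, 1 below and 1 above WT1. Its relative Glyma.08G201100-1 had 275 and 258 at WT1, 4452 and 3839 at DR1, 932 and 569.8 at WT2, and 92.2 and 855 at DR2, and again DR2 array 1 was far below array 2. Its unique-exon entry (_UE, a separate probe set of the array) had 398 and 353 at WT1, 8555 and 7443 at DR1, 1697 and 1042 at WT2, and 110.5 and 1097 at DR2. Neither locus passed the test between DR2 and WT2 (log2 change -2.12, SE 0.93, limma adjusted p = 0.075 for Glyma.07G015600-1). Of the remaining Hpt members, Glyma.13G354700-1 read 96.8 and 47.9 at WT1, 262 and 326 at DR1, 120.1 and 134 at WT2, and 22.8 and 18.4 at DR2, with both DR2 arrays below every other array and not above background, and was at least 2.8-fold lower at DR2 than at WT2 (limma adjusted p = 0.00028). Glyma.20G230800-1, the other remaining Hpt member, read 112.7 and 66.6 at WT2 and 63.6 and 120.6 at DR2. It was not called between these states (log2 change 0.02, limma adjusted p = 0.98). All 5 annotated Hpt entries that were more than 4-fold higher at DR1 were members.

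**Figure D1:**
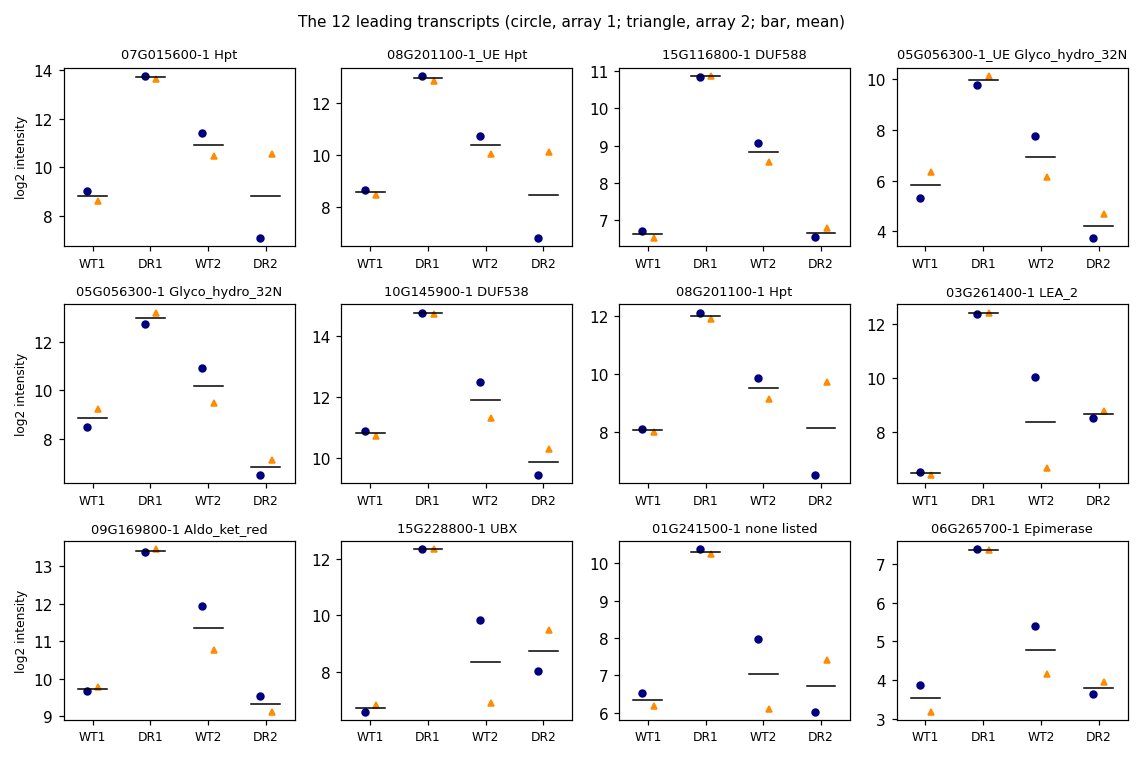
Normalized log2 intensity (y axis) of the 12 leading members on each array, by state (x axis). Circles are array 1, triangles array 2 and bars the mean of 2. DR1 arrays stand above all others in each panel, while the WT2 and DR2 arrays spread widely in several, for example at Glyma.07G015600-1 and Glyma.03G261400-1.

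Invertases with the Glyco_hydro_32N domain, which split sucrose into glucose and fructose, had a median change of -5.97 between DR2 and DR1, the lowest among domains with 2 or more members. The 5 member entries came from 4 loci, and no other annotated entry with this domain was over 4-fold higher at DR1. Glyma.05G056300-1 had 365 and 598 at WT1, 6714 and 9373 at DR1, 1918 and 706 at WT2, and 92.7 and 142 at DR2, so that both DR2 arrays lay below both WT1 arrays. Glyma.11G030800-1 read 238 and 445 at WT1, 1895 and 2521 at DR1, 714 and 489 at WT2, and 40.2 and 51.0 at DR2, and Glyma.17G138500-1_UE read 414 and 784 at WT1, 3058 and 4660.2 at DR1, 1147 and 861 at WT2, and 46.5 and 75.6 at DR2. The DR2 arrays were the lowest in each case and did not overlap with any other state. All 5 entries were called lower at DR2 than at WT2, Glyma.05G056300-1 with log2 change -3.34, SE 0.49, limma adjusted p = 0.00053. Glyma.11G030800-1 and Glyma.05G056300-1_UE had no probe above background at DR2, so the size of their fall is open. When the array files were normalized again and the probes averaged, the change of Glyma.17G138500-1_UE was -2.50 in place of -4.07 and that of Glyma.11G030800-1 was -2.03 in place of -3.71, while Glyma.05G056300-1 gave -3.37. For Glyma.01G211000-1, which had 962 and 1838 at WT1, 8809.8 and 13412 at DR1, 3322 and 2167 at WT2, and 161 and 188 at DR2, the change of -3.95 in the deposited table was -1.39 by the same route, below the 4-fold threshold, and 1 of its 3 probes rose and fell by more than 4-fold. The main entry of the Glyma.17G138500 locus, Glyma.17G138500-1, was not a member: it was 1.65 higher at DR1 than at WT1, and -3.85 was its change between DR2 and DR1.

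Cystatin-type protease inhibitors (SQAPI domain) and storage proteins differed in how far their mean level moved from DR1 to WT2. The inhibitor Glyma.14G038300-1 had 11317 and 10056 at WT1, 56816 and 77688 at DR1, 24410.4 and 28649 at WT2, and 1610.3 and 1352 at DR2, and the neighbouring Glyma.14G038500-1 had 1687 and 1348 at WT1, 7735 and 9961 at DR1, 3139.5 and 3974 at WT2, and 509 and 491 at DR2. Both stayed above WT1 after rewatering on each array and were lowest at DR2. The changes between DR2 and WT2 were -4.16 for Glyma.14G038300-1 (limma adjusted p = 6.5e-06) and -2.82 for Glyma.14G038500-1 (limma adjusted p = 3.7e-05). Of the 4 SQAPI members, 3 were called lower, where 14.9% of all entries were. The other 2 annotated SQAPI entries induced at DR1 were not members, and their median was 5.63 for DR2 minus WT2. The 3 acid phosphatases of the Acid_phosphat_B class, to which soybean vegetative storage proteins belong, were not called lower at WT2 than at DR1. Neither were Glyma.14G038300-1 and Glyma.14G038500-1, with log2 changes of -1.33 and -1.31. The change was -0.14 for the acid phosphatase Glyma.07G014500-1 and 0.35 for Glyma.08G200100-1. Glyma.07G014500-1 had 30655 and 34581 at WT1, 213543 and 217747 at DR1, 185664 and 205551 at WT2, and 16271 and 31929 at DR2, with both WT2 arrays only a little below the DR1 arrays and the DR2 arrays overlapping with WT1. Glyma.08G200100-1 had 13674 and 15357 at WT1, 68634 and 74568 at DR1, 88285 and 93559 at WT2, and 5197 and 8662 at DR2, with both WT2 arrays above both DR1 arrays. Its neighbour Glyma.08G200000-1 had 50.0 and 68.1 at WT1, 218 and 289 at DR1, 222 and 263 at WT2, and 34.2 and 34.0 at DR2, with WT2 and DR1 overlapping. All 3 were called higher at WT2 than at WT1, by 2.58, 2.65 and 2.05 (log2), and lower at DR2 than at WT2, with changes of -3.10, -3.76 and -2.83.

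Across all members, the WT2 arrays were not used by the rule, although each comparison with WT2 shares 1 state with it, and the choice of members favours WT2 below DR1, WT2 above WT1 and DR2 below WT2. After 1 day of water, 126 of 205 members, 61.5%, were called lower at WT2 than at DR1 by more than 4-fold with a limma adjusted p below 0.05, against 2.85% of all 60386 entries. The median change was -2.24 (all entries -0.06). Both DR1 arrays were above both WT2 arrays for 200 members, against 40.4% of entries. Without WT2 array 2, however, 64 members were called. For the other 1958 transcripts induced more than 4-fold at DR1, the share called lower at WT2 was 71.2% and the median change -2.42.

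Most of the rise was gone at WT2, but not all of it. The median member was 0.73 higher at WT2 than at WT1 (all entries -0.06, other induced transcripts 0.63). Taken member by member on the log2 scale, the median share of the first rise left at WT2 was 23.6%, against 20.8% for the other induced transcripts. Only 5 members were called higher at WT2 than at WT1, 2.44%, against 1.79% of the other induced transcripts and 0.344% of all entries. They were the 3 acid phosphatases, Glyma.15G116800-1, a membrane protein with a DUF588 domain, and Glyma.16G043400-1, a GDA1_CD39 nucleoside phosphatase with 675 and 606 at WT1, 5233 and 6143 at DR1, 3630.2 and 4021 at WT2, and 357 and 374 at DR2, in which both WT2 arrays were far above both WT1 arrays. Leaving out any single WT1 or DR1 array lost all these calls, and nearly all calls among the other entries as well. Without WT2 array 1, 5 members were called, 4 of them shared with these, and without WT2 array 2, 13 were called, with 3 shared. Both WT2 arrays were above both WT1 arrays for 105 members, 51.2%, against 45.4% of the other induced transcripts and 22.1% of all entries. A higher mean at WT2 than at WT1 was seen in 177 members, 86.3%, against 44.6% of entries, and 28 members were below WT1. The 5 lowest at WT2 were an F-box protein, Glyma.13G211000-1, with -0.73 relative to WT1, and transcripts of the auxin-repressed loci Glyma.10G151000 and Glyma.20G237200.

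In the second drought, 38 members were called lower at DR2 than at WT2, which is 18.5%, against 14.9% of all entries, while 1 was called higher, against 12.6%. The median member changed by -0.65. Both DR2 arrays lay below both WT2 arrays for 94 members, 45.9%, against 39.8% of entries, and above both for 3, against 40.3%. Of the other induced transcripts, 1456 (74.4%) were called higher at DR2, a contrast that the rule itself helps to set. The single member called higher was the unique-exon entry Glyma.06G154400-1_UE, which had 69.8 and 45.8 at WT1, 5387 and 4769.6 at DR1, 693 and 31.2 at WT2, and 1096 and 1323 at DR2 (log2 change 3.03, SE 1.15, limma adjusted p = 0.047); the call was lost when any single array other than WT2 array 1 was left out.

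**Figure D2:**
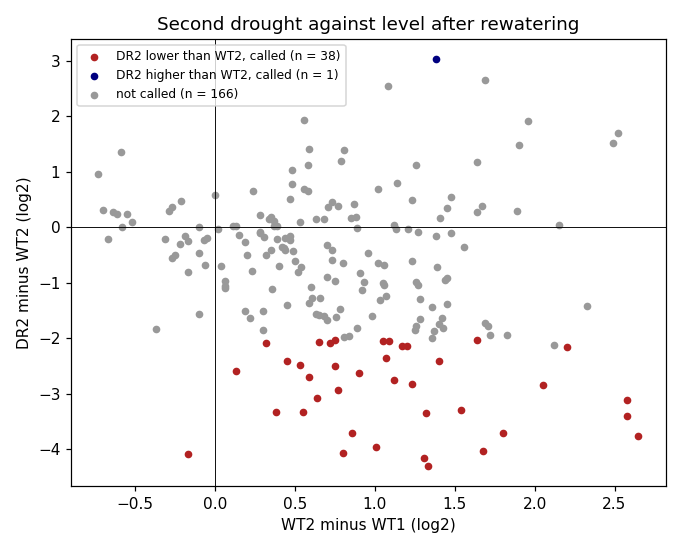
Each point is 1 of the 205 members, with the log2 difference WT2 minus WT1 on the x axis and DR2 minus WT2 on the y axis. The 38 members called lower at DR2 lie at the bottom, the 1 called higher at the top, and most are not called.

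Relative to the start, the members ended the second drought at 3 kinds of level. At DR2, 126 were within 2-fold of WT1, 38 were more than 2-fold below it and 41 more than 2-fold above it. The shares of all entries beyond 2-fold were 27.3% below and 25.9% above. The median was -0.10 on the log2 scale, though it was 0.08 without DR2 array 1 and -0.41 without DR2 array 2. Of the members below WT1 at DR2, 18 had no probe above background there.

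**Figure D3:**
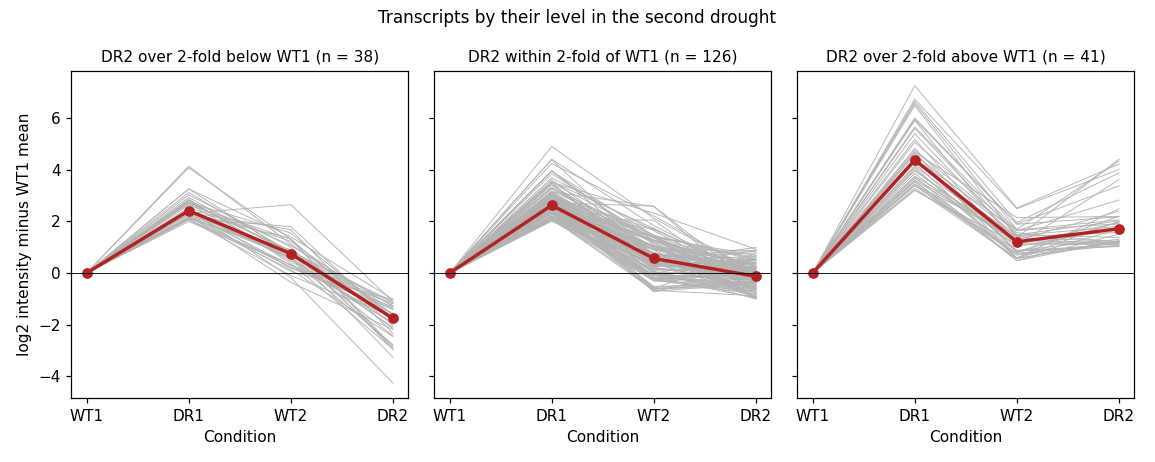
Mean log2 intensity minus the WT1 mean (y axis) across the 4 states (x axis) for members ending the second drought more than 2-fold below WT1 (n = 38), within 2-fold (n = 126) or more than 2-fold above it (n = 41). Grey lines are single members and the red line is their median.

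The lowest end point belonged to a GDSL lipase, of a family of lipid-cleaving esterases. Glyma.06G022800-1 had 817 and 701 at WT1, 4340.2 and 3991 at DR1, 944 and 477 at WT2, and 32.2 and 48.4 at DR2, with DR2 at -4.26 relative to WT1 on the log2 scale and below every array of the other states. It was lower at DR2 than at WT2 (log2 change -4.09, SE 0.35, limma adjusted p = 3.6e-05). Glyma.17G116500-1, an Asp_Glu_race domain protein, followed a like course with 285 and 244 at WT1, 1872 and 1959 at DR1, 468 and 251 at WT2, and 26.0 and 44.9 at DR2. Other low members were transcription factors of the SBP family, which control phase change and leaf development: Glyma.19G146000-1 had 129.6 and 248 at WT1, 802 and 1041 at DR1, 389.7 and 178 at WT2, and 18.2 and 38.4 at DR2 and Glyma.15G076200-1 had 66.6 and 97.5 at WT1, 344 and 355 at DR1, 207 and 381 at WT2, and 30.0 and 15.6 at DR2. Both fell between WT2 and DR2 (limma adjusted p = 0.00066 and 0.00011). Neither was above background at DR2, where they were at least 5.8-fold and 6.2-fold lower than at WT2. The protein kinases Glyma.12G217600-1 and Glyma.13G283100-1 (Pkinase_Tyr) also fell, and were not above background at DR2, at least 2.5-fold and 3.5-fold below WT2.

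At the other end, 7 members were more than 8-fold above WT1 in the second drought. The 5 highest, from 4 loci, had no domain named in the annotation. Glyma.06G154400-1 read 174 and 125 at WT1, 14721 and 13378 at DR1, 2356 and 96.3 at WT2, and 2611 and 3460.2 at DR2, and Glyma.13G219300-1, the steepest riser, read 14.5 and 17.5 at WT1, 2718 and 2194 at DR1, 407 and 20.4 at WT2, and 189 and 463 at DR2. Glyma.13G275000-1 had 28.7 and 36.7 at WT1, 3177 and 3327 at DR1, 617 and 25.8 at WT2, and 535 and 425 at DR2. In each, WT2 array 2 was near or below WT1 and WT2 array 1 stood well above it. Among annotated members, the Myb factor Glyma.13G247200-1 had 126 and 62.8 at WT1, and 2481 and 2038 at DR1. It had 374 and 46.3 at WT2, and 343 and 727 at DR2. Glyma.03G261400-1, with a LEA_2 domain, had 91.1 and 84.1 at WT1, and 5318 and 5467 at DR1. Its values were 1049 and 101 at WT2, and 365 and 432 at DR2, with both DR2 arrays above both WT1 arrays. Glyma.04G198600-1, a sugar transporter of the SWEET type (MtN3_slv), which exports sucrose or hexoses from cells, read 4236 and 3121 at WT1, 61477 and 55937 at DR1, 13205 and 4132 at WT2, and 10383 and 13796 at DR2.

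UBX-domain proteins, which act as cofactors of a protein-unfolding machine, gave 6 members from 4 loci. Glyma.15G228800-1 had 95.2 and 112 at WT1, 5214 and 5209 at DR1, 906 and 118 at WT2, and 258 and 714 at DR2 and its neighbour Glyma.15G228900-1 had 82.2 and 92.4 at WT1, 4232 and 4252 at DR1, 733 and 80.6 at WT2, and 212 and 594 at DR2. In both, WT2 array 1 was high and WT2 array 2 low. Whether the probes of these neighbours share hybridising RNA was not tested. 3 DnaJ_C co-chaperones stayed above WT1 at DR2, and Glyma.15G077700-1 read 19.2 and 19.1 at WT1, 1219.8 and 1241 at DR1, 209.9 and 24.4 at WT2, and 259 and 153 at DR2. In contrast, 2 small heat shock proteins (HSP20), Glyma.18G094600-1 with 5609 and 3823 at WT1, 45642 and 45069.5 at DR1, 14303 and 9938 at WT2, and 2835 and 3161 at DR2 and Glyma.08G318900-1 with 1677 and 1061 at WT1, 10827 and 10605 at DR1, 3948 and 3024 at WT2, and 934 and 969.8 at DR2, were below WT1 at DR2 on all arrays. Another 29 annotated HSP20 entries were induced but not in the set, with a median of 2.89 for DR2 minus WT2.

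myo-Inositol-1-phosphate synthases (NAD_binding_5), which make the precursor of inositol and galactinol, had 5 entries from 3 loci. Glyma.05G180600-1 read 40788 and 45948 at WT1, 209929.5 and 216805 at DR1, 64619.5 and 23059.6 at WT2, and 20797 and 23542 at DR2. Glyma.18G018600-1 read 6495 and 8620.0 at WT1, 112128 and 104977 at DR1, 26532 and 6871 at WT2, and 15975 and 14544 at DR2, with DR2 minus WT1 of 1.03. The entries of this locus differed: DR2 minus WT1 was -0.28 and -0.65 for the members Glyma.18G018600-1_UE and Glyma.18G018600-2, and 2.16 and 2.45 for Glyma.18G018600-3 and Glyma.18G018600-4, which were not members. The O-methyltransferases of the Methyltransf_2 type, which modify phenolic compounds and isoflavones, included Glyma.06G295700-1, with 50609 and 60024 at WT1, 275074 and 295603 at DR1, 126659 and 54409 at WT2, and 11128 and 14802 at DR2. It was lower at DR2 than at WT2 (log2 change -2.69, SE 0.38, limma adjusted p = 0.00046), as was its unique-exon entry Glyma.06G295700-1_UE (log2 change -2.49, SE 0.54, limma adjusted p = 0.0041). The entry Glyma.06G295700-2 was not called lower, with 31.9 and 37.4 at WT1, 546 and 688 at DR1, 146 and 45.0 at WT2, and 204 and 63.6 at DR2. UDP-glycosyltransferases had 6 members among 15 induced entries. Glyma.13G289100-1 had 151 and 130.2 at WT1, 932 and 941 at DR1, 426 and 394 at WT2, and 32.3 and 54.5 at DR2 and was the clearest, with both WT2 arrays above WT1 and both DR2 arrays below it (log2 change -3.29, SE 0.28, limma adjusted p = 3.3e-05).

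Auxin-repressed or dormancy-associated proteins gave 7 entries of 2 loci, with a median log2 change of 0.24 between DR2 and WT2. The arrays of each of these states disagreed, so a flat course was not shown (SE 0.56 for Glyma.10G151000-3, log2 change 0.10). Glyma.20G237200-1 read 25205 and 13899 at WT1, 86195 and 77311 at DR1, 20403 and 7645 at WT2, and 9173 and 17308 at DR2, and Glyma.10G151000-3 read 16932 and 10001 at WT1, 81239 and 65418 at DR1, 16042 and 5132 at WT2, and 6982 and 13498 at DR2. Neither was called between DR2 and WT2 (limma adjusted p = 0.98 and 0.89), and WT2 array 1 overlapped with WT1 while array 2 was below it. The nuclear factor Y subunits Glyma.15G118800-1 and Glyma.09G014100-1 (CBFD_NFYB_HMF) ended at 0.06 and 0.07 relative to WT1. The bHLH factors gave 6 members from 5 loci, of 15 induced entries. Glyma.05G110900-1 had 86.6 and 90.2 at WT1, 609 and 751 at DR1, 203 and 104 at WT2, and 30.1 and 38.8 at DR2 and was called lower at DR2 than at WT2 (log2 change -2.09, SE 0.33, limma adjusted p = 0.00082), while Glyma.17G155900-1, with 55.9 and 66.0 at WT1, 485 and 573 at DR1, 151 and 75.04 at WT2, and 17.6 and 41.5 at DR2 was not (log2 change -1.97, SE 0.45, limma adjusted p = 0.0054). Neither was above background at DR2, where they were at least 3.2-fold and 2.3-fold below WT2. No annotated NAC, WRKY, bZIP or type 2C phosphatase entry was a member, while 21, 14, 12 and 31 of them were induced more than 4-fold at DR1. Of all 2163 transcripts induced that far, 205 were members. Whether any family was over- or under-represented was not tested.

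**Figure D4:**
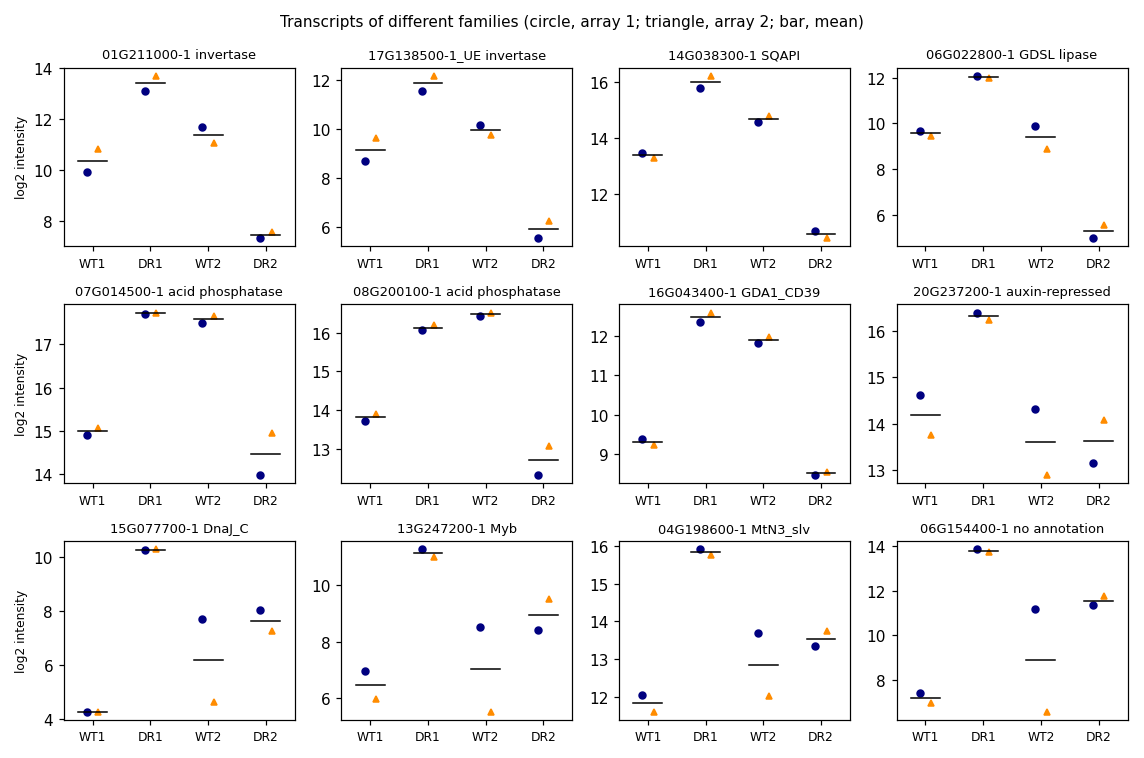
Log2 intensity (y axis) on each array by state (x axis) for 12 members of different families; circles are array 1, triangles array 2 and bars the mean. Invertase, SQAPI, GDSL lipase and acid phosphatase entries are lowest at DR2, whereas the acid phosphatases and GDA1_CD39 hold their level at WT2.

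Grouped by function, with the groups drawn up after the domains of the members were seen, storage and protease control had 5 of 10 members more than 2-fold below WT1 at DR2, with a median of -0.94. Kinases had 3 of 6 (median -1.02). Hormone and peptide signalling had 17 of 19 within 2-fold. Chaperones and protein turnover had none below and 6 of 13 above, with a median of 0.84. Sugar, inositol and cell wall genes were split, with 6 below, 8 within and 8 above. Calls of lower at DR2 than at WT2 numbered 7 of 10 in storage and protease control, 1 of 19 in hormone and peptide signalling and 0 of 13 in chaperones and protein turnover, where 14.9% of all entries were called. Differences between the groups were not tested, and members of a family share sequence and loci.

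**Figure D5:**
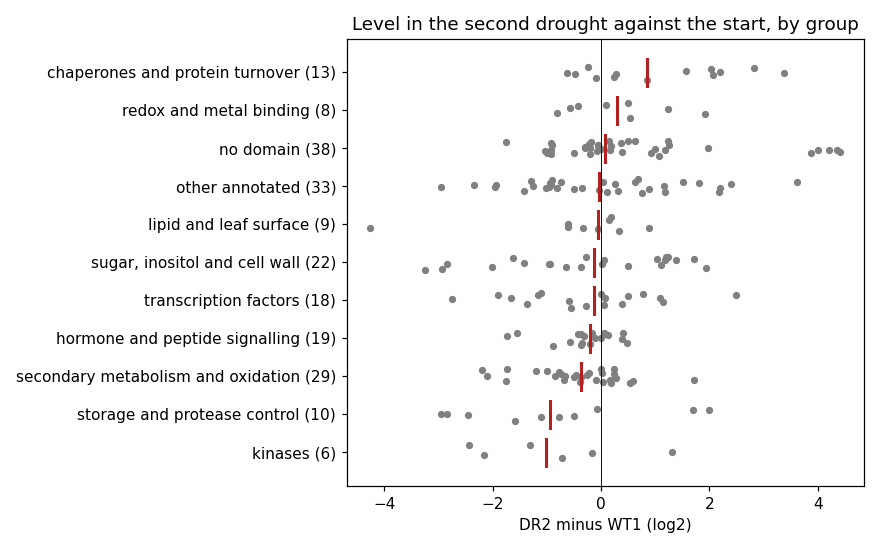
DR2 minus WT1 (log2, x axis) for each member, by functional group (y axis, with the number of members). Grey points are members with vertical scatter added for display and red bars are group medians, from -1.02 for kinases to 0.84 for chaperones and protein turnover.

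Member loci were spread over all 20 chromosomes, with 4 to 16 loci on each. A total of 15 loci gave 2 or more member entries, 37 in all, and 15 pairs of neighbouring member loci had gene numbers no more than 300 apart, of which 7 shared a domain, such as Glyma.14G038300 and Glyma.14G038500, Glyma.08G200000 and Glyma.08G200100, and Glyma.16G033200 and Glyma.16G033300. Of 24 further entries of member loci that were not members, 21 were higher at DR1 than at WT1 and lower at DR2 than at DR1, by sign alone. The share of all entries with this order was not counted. Over the 24, the median changes were 1.60 and -1.31. By more than 4-fold, 9 were higher at DR1 and 6 were lower at DR2 than at DR1. At Glyma.03G101700 the entries disagreed, since Glyma.03G101700-1_UE, counted among the 21, was 7.71 higher at DR1 and changed by -0.05 to DR2. The probes within a transcript were mostly alike in direction, which the rule favours since it used the same arrays. Among 183 members with 2 or more probes, every probe was higher at DR1 than at WT1 and lower at DR2 than at DR1 in 170. Every probe made both changes by more than 4-fold in 112 of them.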

How the data were processed

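Leaf RNA was hybridised to 8 arrays, 2 for each of 4 states, and groups follow the labels. The authors deposited a table of intensity values per transcript, corrected for background and normalized with limma, whose settings are not given in the sources used here. Per the file headers, the array files hold raw spot intensity and processed intensity from Feature Extraction 11.5.1.1. The table was log2-transformed here with no pseudocount. A linear model with a mean per state was fitted to 60386 entries with limma 3.58.1 in R 4.3.3 (lmFit, eBayes), with p-values adjusted by Benjamini-Hochberg over all entries. A call needed a change above 4-fold and an adjusted p below 0.05. The fit was tested on simulated data. A floor, the lowest value among fully detected transcripts of an array, stood in for dim members. Named members followed a rule on rise, fall, family lists and extremes; some others were named after their values were seen. Members and lists were chosen with earlier results of these data known. No sequences or coordinates are printed. Alternatives covered background correction, scaling, a filter, a pseudocount of 50, a replicate block, thresholds and each array left out.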

Additional observations from a re-analysis of the deposited data

Results flagged for a closer look

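For 94 members, both DR1 arrays were above both WT1 arrays and both DR2 arrays were below both WT2 arrays, which flagged them as moving one way in the first drought and the other way in the second. The difference between the droughts was not tested, since the rule used DR1, WT1 and DR2. Both DR2 arrays lay below both WT2 arrays in 39.8% of all entries, close to the members' 45.9%.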

How the results depend on the processing

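The rule gave 205 members, 119 with a pseudocount of 50 and 36 at 8-fold, and 189 to 236 with an array left out. Of the 225 chosen from processed signals scaled to the 75th percentile, 156 were shared. Members lower at WT2 than at DR1 numbered 64 to 143 with an array left out, against 126. Members higher at WT2 than at WT1 numbered 5, against 13 with processed signals, 3 with the pseudocount, 18 at 2-fold, and 0 to 13 with an array left out. Members lower at DR2 than at WT2 numbered 38, against 58 with processed signals, 16 with the pseudocount, 77 at 2-fold and 31 to 54 with an array left out. Members higher at DR2 than at WT2 numbered 1, against 0 with processed signals, with a trended robust eBayes step or within 1 slide, 2 with the replicate block, and 0 to 18 with an array left out, the 18 without WT2 array 1. The replicate block gave 126, 5 and 38 for the other counts, and deviations of same-numbered arrays did not correlate in all pairs. The median from WT1 to WT2 was 0.20 to 1.12 with an array left out, and that from WT1 to DR2 -0.41 to 0.08, reversed without DR2 array 1. The cause of these shifts was not tested. Of 25 single changes followed under the alternatives, 16 lost the call at least once and none turned direction. With 2 arrays a state, the number of arrays limits the precision.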
